A study of Mus musculus with 36 samples.

Results

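The genes described here encode AP-1, BATF and IRF transcription factors, and 10 of the 56748 genes of the count table were chosen by name. They are the FOS family genes Fos, Fosb and Fosl2, the JUN family genes Jun, Junb and Jund, the BATF family genes Batf and Batf3, and the interferon regulatory factor genes Irf4 and Irf8. Each name matched 1 gene. The libraries are RNA-seq of mouse splenic CD4 T cells, and 2 lines of mice were used. For the HP1a line, a floxed Hp1a allele had been removed in the germ line with CMV-cre, so that HP1a KO mice lack HP1α in every tissue. In the HP1g line a floxed Hp1g allele was removed by Cd4-cre, so that HP1g KO mice lack HP1γ in T cells, and their WT littermates carried the floxed allele without cre. WT mice of the HP1a line were littermates from a cross of heterozygous mice. Both lines were on a mixed 129/Sv and C57BL/6 background, and the mice were 6 to 12 weeks old.

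Naive cells (Naive) were isolated by negative selection on beads and not sorted. Conventional T cells (Tconv) were naive cells that had been injected into irradiated hosts, C57BL/6 J or CD45.1+ B6, together with bone marrow of C57BL/6 J and of semi-allogeneic B6D2F1 mice. They were recovered from the spleen 3 weeks later by sorting on CD4 and the T cell receptor chain Vβ6. Tconv with Treg came from hosts that had also received WT regulatory T cells (Treg) expanded in culture, which carry Thy1.1 and were excluded by the sort. Tconv and Naive cells therefore differ in activation, in the time spent in an irradiated host and in the isolation, and these cannot be told apart. The 12 groups held 3 libraries each, except HP1g KO Tconv with Treg with 2 libraries, because the study left out the third for its read quality. Libraries held 37029519 to 63042245 estimated counts.

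AP-1 factors are pairs of a JUN protein with a FOS, JUN, ATF or BATF protein that bind a short DNA site, and T cell receptor signals through MAP kinases and calcium raise and activate them within minutes. BATF and BATF3 carry the leucine zipper but no activation domain of their own, pair with JUN proteins, and recruit IRF4 or IRF8 to composite DNA elements. In T cells BATF and IRF4 are known for their part in effector and follicular helper differentiation, while IRF8 is best known in myeloid, dendritic and B cells and BATF3 in dendritic cells.

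The promoter sequences of Jun, Batf and Irf8 are shown as examples of a JUN gene, a BATF gene and an IRF gene with a call in the comparisons described further on. Each line gives the 250 bases before the annotated start, 5′ to 3′ on the strand of the gene, from the RefSeq promoter table on build GRCm38.p6. That build is older than the GRCm39 of the count table, and positions are not exchanged between them. Capitals mark TGACATCA in Jun, the sequence TTCNNNGAA in Irf8, and GGAAA, here read as TTTCC on the opposite strand, in Batf.

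Jun, chr4:95052223-95052472, - strand: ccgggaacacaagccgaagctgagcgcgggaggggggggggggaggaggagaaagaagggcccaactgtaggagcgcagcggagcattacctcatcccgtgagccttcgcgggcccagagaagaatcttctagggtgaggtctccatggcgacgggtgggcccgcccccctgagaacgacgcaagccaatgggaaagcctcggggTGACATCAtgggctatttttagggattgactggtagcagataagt

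Batf, chr12:85686470-85686719, + strand: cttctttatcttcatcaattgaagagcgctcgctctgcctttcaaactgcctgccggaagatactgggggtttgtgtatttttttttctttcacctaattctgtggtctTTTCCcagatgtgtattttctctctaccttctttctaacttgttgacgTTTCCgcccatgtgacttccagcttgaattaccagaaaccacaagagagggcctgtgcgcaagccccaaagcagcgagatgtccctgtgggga

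Irf8, chr8:120736108-120736357, + strand: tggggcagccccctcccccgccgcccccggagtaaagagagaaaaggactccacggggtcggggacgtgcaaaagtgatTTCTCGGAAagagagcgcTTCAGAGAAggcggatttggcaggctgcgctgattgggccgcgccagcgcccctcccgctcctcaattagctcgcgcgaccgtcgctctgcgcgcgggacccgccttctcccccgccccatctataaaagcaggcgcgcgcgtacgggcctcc

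The letters TGACATCA began 45 bases before the start of Jun and were found, on either strand, in 2.93% of the 32851 promoter windows of the same length. TTCNNNGAA, the pattern bound by STAT proteins, occurred in 2 places before the first annotated start of Irf8, at 171 and 153 bases, and in 7.02% of all windows. The letters GGAAA, the core of NFAT sites, occurred 141 and 93 bases before the start of Batf, but 55.6% of all windows hold them, and the match 166 bases before the start of Irf8 overlaps one of its TTCNNNGAA matches. The exact AP-1 letters TGANTCA (6.75% of windows) and TGACGTCA (1.55%) had no match in the windows of the 10 genes. TGACATCA, marked in Jun, is a variant of such a site and was counted apart.

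On GRCm39, Batf lies on chr12:85733423-85755861 on the plus strand, Jun on chr4:94937271-94940459 on the minus strand, and Irf8 on chr8:121463096-121485659 on the plus strand. Counts of exonic reads were summed over each gene. Jun, Junb, Jund, Fosl2 and Batf3 overlap genes on the opposite strand (Junos for Jun; Prdx2 and Gm65321 for Junb; Gm11175, Gm72529 and Gm70128 for the others). The library kit does not mark strand, so reads in the overlaps cannot be told apart.

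Levels are given as CPM, counts scaled to library size with TMM factors, over the 35 libraries used. Per kilobase of annotated exon and averaged over these libraries, Junb was the most abundant of the 10 genes at 1386 CPM per kb. Jund followed with 581, Fos with 442 and Jun with 213 CPM per kb. Batf stood at 65.0, Fosb at 12.1, Irf4 at 6.03, Fosl2 at 2.86 and Irf8 at 2.49 CPM per kb. Batf3 was close to absent, at 0.0959 CPM per kb. Ranked by group mean, 6 of the 110 neighbouring pairs of groups, over the 10 genes, had libraries that did not overlap. Neighbours in such a ranking are close by construction, and no share over all genes stands beside this count.

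**Figure D1:**
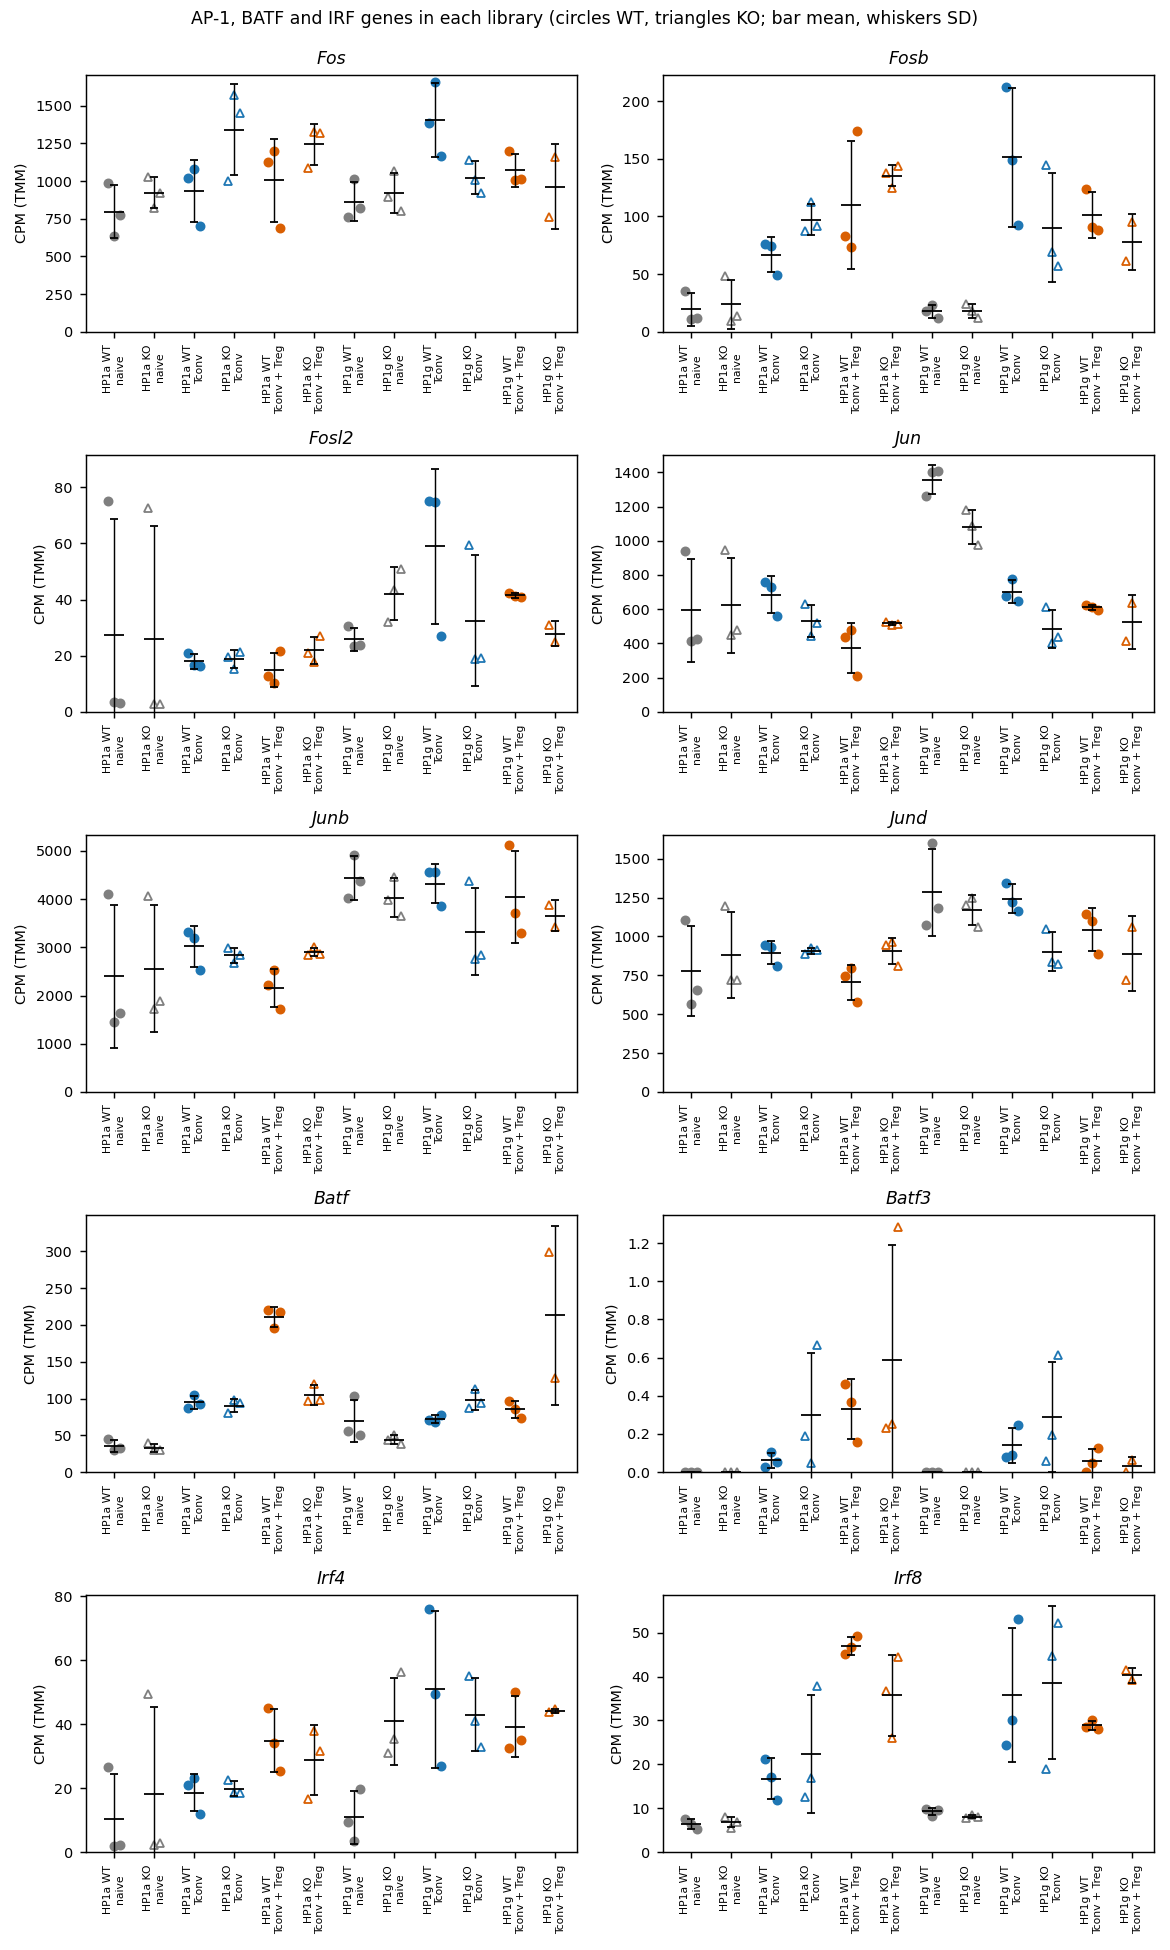
CPM (TMM) of the 10 genes in each of the 35 libraries, in 12 groups on the horizontal axis; circles are WT, triangles are KO, black bars are group means and whiskers their SD, cut at 0. Batf stood highest in HP1a WT Tconv with Treg and in 1 library of HP1g KO Tconv with Treg, at 299 CPM.

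Several libraries stood apart before any comparison was made. The HP1a WT Naive and HP1a KO Naive libraries numbered 1 had far more of several AP-1 and IRF transcripts than the other libraries of their groups. Fosl2, a FOS family gene, was at 75.1, 3.56 and 3.29 CPM in HP1a WT Naive and at 72.5, 2.80 and 2.62 CPM in HP1a KO Naive. Irf4 was at 26.5, 2.03 and 2.24 CPM in the first group and at 49.5, 2.38 and 2.96 CPM in the second. In both groups the first library alone was high. Junb showed the same split, with 4113 CPM against 1453 and 1635 CPM in HP1a WT Naive. Jun stood at 942 CPM against 413 and 424 CPM there. The summed level of 16 immediate-early and stress response genes (such as Dusp1, Ier2 and Zfp36, none of them among the 10 genes) ran up to 8423 CPM in HP1a WT Naive and 8568 CPM in HP1a KO Naive, against lowest values of 3284 and 3442 CPM in the same groups. In the 6 HP1g Naive libraries this sum was between 7036 and 8927 CPM. HP1g WT Naive library 2 also differed from its group, with Batf at 103 CPM against 56.3 and 50.6 CPM, a CD4 T cell marker sum of 7832 CPM against 4787 and 5093 CPM, and a Treg marker sum of 129 CPM against 70.8 and 71.7 CPM. Handling of the cells was not measured, and its part in these levels was not tested.

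**Figure D2:**
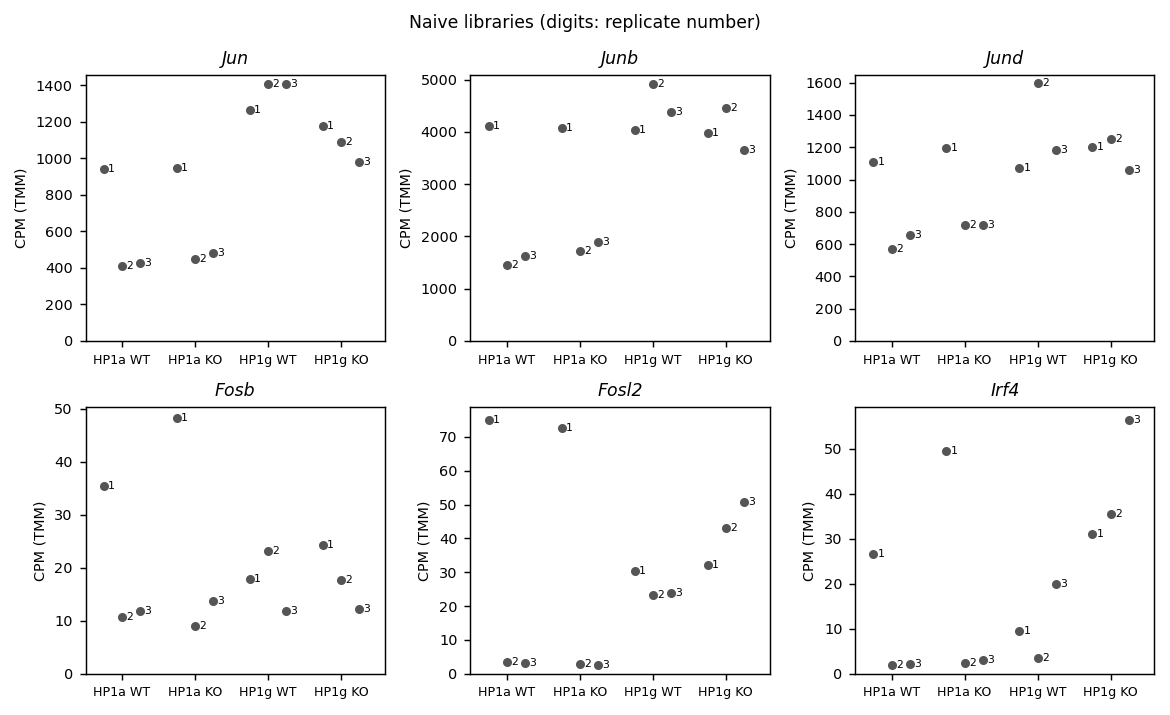
CPM (TMM) of 6 genes in the 12 Naive libraries, with replicate numbers beside the points. In HP1a WT and HP1a KO the library numbered 1 stood above the other 2 for each of these genes, and for Junb, Jund, Jun and Fosl2 the HP1g libraries stood above those 2 lower ones.

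Marker levels were those of the labelled cell type in every library. The summed level of 6 CD4 T cell markers was between 4609 and 7832 CPM in all 35 libraries. Markers of B cells summed to at most 9.24 CPM, those of plasma cells to at most 8.33 CPM, those of CD8 T or NK cells to at most 30.2 CPM and those of dendritic cells to at most 33.0 CPM. The summed level of 8 myeloid markers was 6.06 to 13.0 CPM in Naive cells and reached 542 CPM in transferred cells. Values of Cbx5 and Cbx3, the genes for HP1α and HP1γ, went with the labels. Cbx5 was at 9.20 to 12.3 CPM in HP1a KO Naive against 18.5 to 25.0 CPM in HP1a WT Naive. Cbx3 was at a mean of 71.4 CPM in HP1g KO Naive against 141 CPM in HP1g WT Naive, with no overlap. Calls were made with edgeR's quasi-likelihood test. They required a Benjamini-Hochberg value, taken over all genes tested, under 0.05 and a log2 fold change above 1 in size. Nothing in the labels says whether libraries of a group came from separate animals, so p-values measure the spread between these libraries.

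The first question was how Tconv recovered without Treg differed from Naive cells. Fosb and Irf8 rose in both genotypes of both lines, and Batf rose in 3 of the 4 comparisons, while Jun fell in HP1g KO. Irf4 and Fosl2 were called in HP1g WT only, but the difference between groups in this respect was not tested. In all, 3 of the 9 genes tested were called higher in HP1a WT and 3 of 9 in HP1a KO, against 23.1% and 19.7% of all genes tested. In the HP1g line 4 of 9 were called higher in HP1g WT, against 23.5% of all genes. In HP1g KO 3 were called higher and 1 lower, against 23.1%. Counts of 3 or 4 among 9 genes stand close to these shares. Batf3 had too few counts to be tested here.

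Fosb, an early-response FOS family gene, stood at 35.4, 10.7 and 11.9 CPM in HP1a WT Naive and at 76.3, 74.7 and 49.6 CPM in HP1a WT Tconv. In HP1g WT it stood at 17.8, 23.2 and 11.9 CPM in Naive and at 213, 149 and 92.1 CPM in Tconv. The Tconv libraries were above all Naive libraries in each case. The log2 fold change was 1.79 ± 0.52 (SE; adjusted p = 0.0337 by edgeR's quasi-likelihood test) in HP1a WT and 3.09 ± 0.37 (adjusted p = 0.000561, edgeR) in HP1g WT. In HP1a KO it was 2.04 ± 0.63 (adjusted p = 0.0428, edgeR) and in HP1g KO 2.33 ± 0.44 (adjusted p = 0.00818, edgeR). The HP1a WT call was lost without HP1a WT Naive library 2 (edgeR adjusted p = 0.0907), Naive library 3 (0.102), Tconv library 1 (0.0682) or Tconv library 2 (0.0859). The HP1a KO call was lost without HP1a KO Naive library 2 (edgeR adjusted p = 0.0736) or 3 (0.118) and without Tconv library 1 (0.0791), 2 (0.0936) or 3 (0.0852). Without the filter on low counts neither was called (edgeR adjusted p = 0.130 in HP1a WT and 0.166 in HP1a KO). Without the doubted first Naive library Fosb rose by 2.57 in HP1a WT and by 3.09 in HP1a KO on the log2 scale.

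Irf8, an interferon regulatory factor gene, rose in all 4 comparisons. It stood at 7.61, 6.50 and 5.36 CPM in HP1a WT Naive and at 21.2, 17.1 and 11.9 CPM in HP1a WT Tconv. In HP1g WT it stood at 9.87, 8.35 and 9.72 CPM in Naive and at 24.3, 30.0 and 53.1 CPM in Tconv. Every Tconv library was above every Naive library. The log2 fold change was 1.37 ± 0.25 (adjusted p = 0.00249, edgeR) in HP1a WT, 1.74 ± 0.41 (adjusted p = 0.0140, edgeR) in HP1a KO, 1.94 ± 0.30 (adjusted p = 0.00212, edgeR) in HP1g WT and 2.29 ± 0.36 (adjusted p = 0.00236, edgeR) in HP1g KO. In HP1a KO the call was lost without Naive library 2 (edgeR adjusted p = 0.0607) or Naive library 3 (0.0542), and the log2 fold change was 1.13 without Tconv library 3. Irf8 is expressed in myeloid and dendritic cells as well as in T cells. The myeloid sum was 6.80 to 7.83 CPM in HP1a WT Tconv against 9.33 to 12.8 CPM in HP1a WT Naive. It was 24.1 to 304 CPM in HP1g WT Tconv, 40.3 to 91.9 CPM in HP1g KO Tconv and 12.7 to 158 CPM in HP1a KO Tconv. Tested myeloid markers called higher were 5 of 7 in HP1a KO, 5 of 8 in HP1g WT and 6 of 8 in HP1g KO. In HP1a WT 0 of 4 were called higher and 1 lower. Of all genes tested 19.7%, 23.5%, 23.1% and 23.1% were called in these comparisons, in that order. The sum of 6 dendritic cell markers was 0.824 to 3.27 CPM over all Naive libraries and 8.19 to 31.9 CPM over all Tconv libraries. Of those tested, 2 of 3 rose in HP1a WT (Itgax and Xcr1) and 1 of 3 in HP1a KO. In HP1g WT 1 of 2 rose and in HP1g KO 3 of 3. Xcr1 was at 0.382 to 1.09 CPM in HP1a WT Tconv and at 0.0451 to 0.0551 CPM in Naive, Itgax made up most of the sum, and Flt3, Clec9a and Siglech had 0 counts in HP1a WT Tconv. The part of other cells in the Irf8 values was not tested in any of the 4 comparisons. In bulk samples more cells of a type and more RNA per cell cannot be told apart.

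Batf, the BATF family gene expressed in T cells, stood at 45.0, 29.8 and 32.8 CPM in HP1a WT Naive and at 87.3, 105 and 92.7 CPM in HP1a WT Tconv. In HP1a KO it stood at 39.5, 30.5 and 29.7 CPM and then at 79.9, 97.3 and 94.3 CPM. The groups were far apart in both. Batf rose by 1.41 ± 0.16 (adjusted p = 0.000229, edgeR) in HP1a WT, by 1.46 ± 0.14 (adjusted p = 0.000227, edgeR) in HP1a KO and by 1.17 ± 0.14 (adjusted p = 0.000265, edgeR) in HP1g KO on the log2 scale. In HP1g WT the Naive libraries stood at 56.3, 103 and 50.6 CPM and the Tconv libraries at 70.3, 68.3 and 77.9 CPM. Those groups overlapped because of the second Naive library, which stood apart in its marker sums too, and the log2 fold change was 0.04 ± 0.27 (adjusted p = 0.921, edgeR). The highest log2 fold change without 1 library of HP1g WT was 0.44, which was not called.

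Of the JUN family, Jun was lower in Tconv in the HP1g line. In HP1g WT it stood at 1261, 1404 and 1408 CPM in Naive and at 680, 778 and 647 CPM in Tconv. In HP1g KO it stood at 1178, 1086 and 978 CPM and then at 614, 403 and 438 CPM. The groups did not overlap. Jun fell by 1.14 on the log2 scale in HP1g KO (SE 0.17, adjusted p = 0.000845, edgeR). In HP1g WT the log2 fold change was -0.95 ± 0.16 (adjusted p = 0.00302, edgeR), under the threshold on the fold, and it passed when HP1g WT Naive library 1 (-1.01) or Tconv library 2 (-1.03) was left out. In the HP1a line the log2 fold change of Jun was 0.20 in WT and -0.22 in KO, not called in either. Junb, the most abundant of the genes, had log2 fold changes between -0.26 and 0.33 and Jund between -0.36 and 0.21 in the 4 comparisons, and neither was called.

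Among the other FOS genes, Fos stood at 633 to 984 CPM in HP1a WT Naive and at 701 to 1081 CPM in HP1a WT Tconv. Its log2 fold change was 0.70 ± 0.20 in HP1g WT (adjusted p = 0.0313, edgeR) and 0.55 ± 0.17 in HP1a KO (adjusted p = 0.0402, edgeR), both below the threshold on the fold. Fosl2 stood at 30.5, 23.3 and 23.8 CPM in HP1g WT Naive and at 75.2, 74.6 and 27.1 CPM in Tconv. It rose by 1.18 ± 0.36 (adjusted p = 0.0407, edgeR) there. Of the 6 fits without 1 library only that without Tconv library 3 kept this call. Adjusted p (edgeR) was 0.0625 without Naive library 1, 0.130 without 2, 0.109 without 3, 0.125 without Tconv library 1 and 0.138 without 2. In the fit of all libraries it was 0.345.

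Irf4, the partner of BATF in T cells, stood at 9.40, 3.56 and 19.9 CPM in HP1g WT Naive and at 76.1, 49.6 and 27.0 CPM in Tconv. The groups did not overlap and Irf4 rose by 2.22 ± 0.61 (adjusted p = 0.0262, edgeR). The log2 fold change was 2.96 without Naive library 3. The call was lost without Naive library 1 (edgeR adjusted p = 0.0799) or 2 (0.0560), and without Tconv library 1 (0.0812) or 2 (0.0609). It was also lost in the fit of all libraries (edgeR adjusted p = 0.0529), without the filter on low counts (0.156) and with the replicate number as a block (0.0601). In HP1g KO the Naive libraries stood at 31.0, 35.5 and 56.4 CPM and the Tconv libraries at 55.2, 41.0 and 32.8 CPM, with a log2 fold change of 0.08 ± 0.27. Fosl2 in HP1g KO had a log2 fold change of -0.37 ± 0.50, and it was called lower without Tconv library 1 (-1.12).

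In the HP1a line the doubted first Naive libraries decided Irf4 and Fosl2. With them Irf4 had a log2 fold change of 0.85 ± 1.09 in HP1a WT and 0.12 ± 1.13 in HP1a KO, and Fosl2 of -0.61 ± 1.28 and -0.47 ± 1.25. Without HP1a WT Naive library 1, Irf4 rose by 3.13 (adjusted p = 0.000167, edgeR) and Fosl2 by 2.40 (adjusted p = 2.6e-05, edgeR). Without HP1a KO Naive library 1, Irf4 rose by 2.89 (adjusted p = 8.9e-05, edgeR) and Fosl2 by 2.79 (adjusted p = 0.000139, edgeR). The number of called genes among the 10 was then 5 in HP1a WT and 5 in HP1a KO, against 25% and 21.2% of all genes tested. These values came from a design with 2 Naive libraries, and the doubt about the library was raised after its values had been seen. In immediate-early and stress response genes the libraries left out summed to 8423 and 8568 CPM. That lies within the 7036 to 8927 CPM of the HP1g Naive libraries, while the HP1a Naive libraries kept had 3284 to 3591 CPM. Which of them is the better baseline was not tested.

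**Figure D3:**
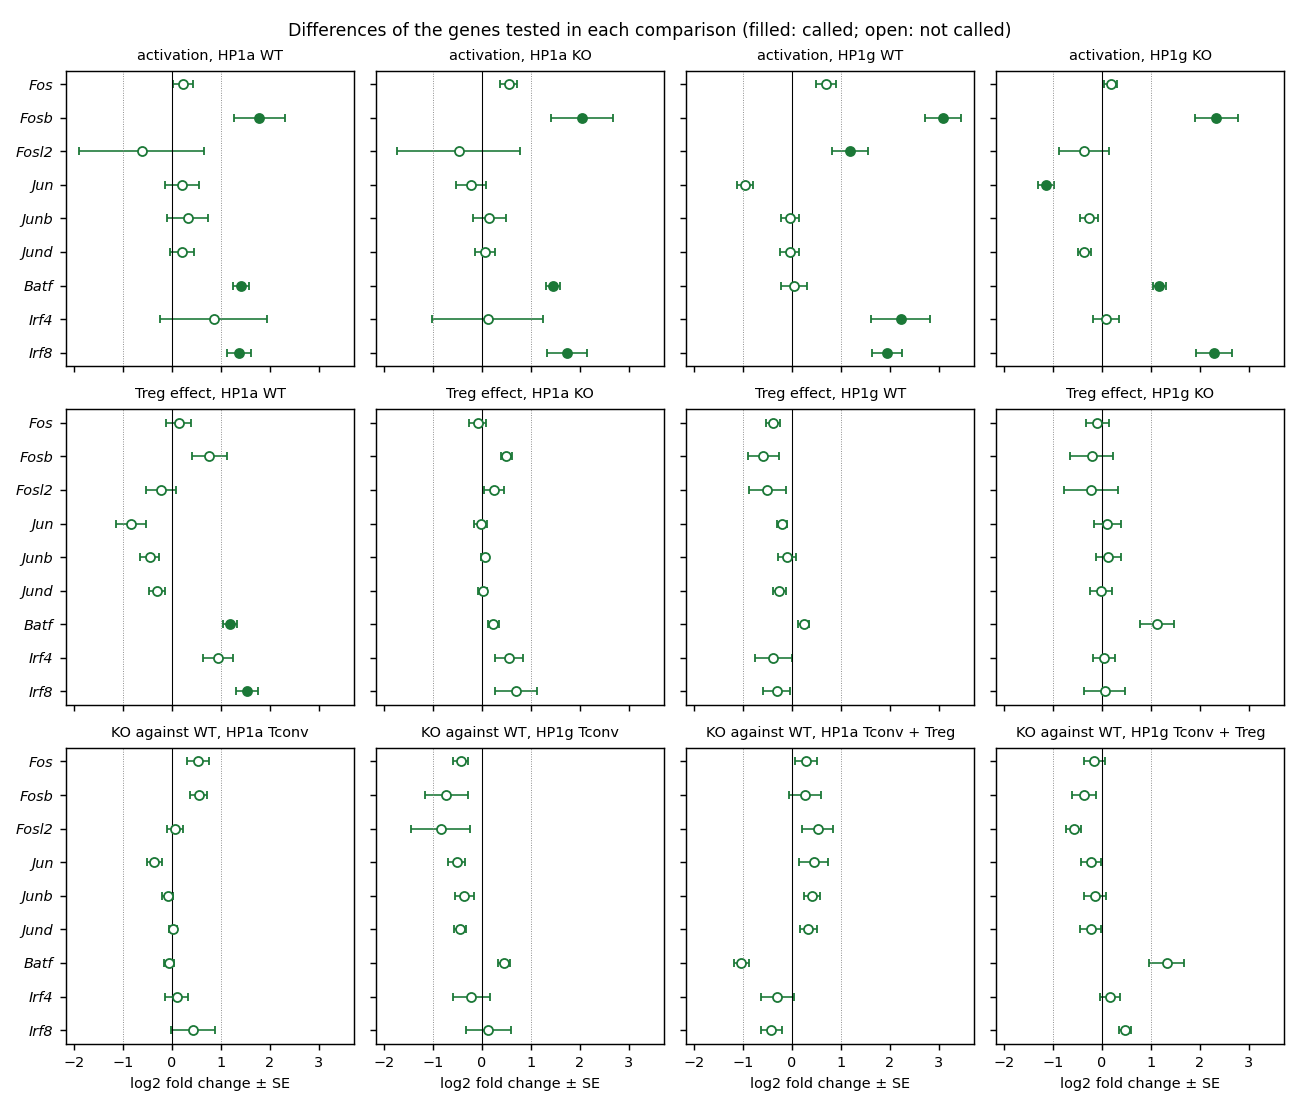
Log2 fold change with its SE of 9 genes in 12 comparisons by edgeR, with filled points for called genes and dotted lines at the thresholds of 1 and -1. Fosb and Irf8 are filled in all 4 activation panels, Batf and Irf8 in the Treg effect of HP1a WT, and no gene in the 4 panels of KO against WT.

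The second question was how Tconv recovered with Treg differed from Tconv without them. In HP1a WT, Batf and Irf8 rose, 2 of the 9 genes tested, against 5.96% of all genes. No gene was called in HP1a KO (0 of 10, against 0.44% of all genes), in HP1g WT (0 of 9, against 0.0126%) or in HP1g KO (0 of 9, against 0%, where 1294 genes had an unadjusted p under 0.05 and DESeq2 called 269). Of the 9 genes in HP1a WT, 6 had groups that did not overlap, against 34.8% of all genes. Jun, Junb and Jund were lower with Treg in every library and Batf, Irf4 and Irf8 higher.

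Batf stood at 87.3, 105 and 92.7 CPM in HP1a WT Tconv and at 221, 196 and 218 CPM in HP1a WT Tconv with Treg. The log2 fold change was 1.20 ± 0.14 (adjusted p = 0.00445, edgeR), and it was called in each of the 6 fits without 1 library. In HP1a KO it stood at 79.9, 97.3 and 94.3 CPM and then at 96.4, 120 and 97.8 CPM. These groups overlapped, with a log2 fold change of 0.23 ± 0.11 (adjusted p = 0.378, edgeR). HP1g WT stood at 70.3, 68.3 and 77.9 CPM and then at 96.9, 85.5 and 73.8 CPM, with a log2 fold change of 0.24 ± 0.12 (adjusted p = 0.752, edgeR). HP1g KO stood at 87.1, 113 and 93.3 CPM and then at 299 and 127 CPM. Its 2 libraries with Treg differ by more than the 3 without, and the log2 fold change of 1.12 ± 0.35 was not called (adjusted p = 0.556, edgeR). With the libraries of both lines in 1 fit it was called (adjusted p = 0.0414, edgeR).

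Irf8 stood at 21.2, 17.1 and 11.9 CPM in HP1a WT Tconv and at 45.2, 46.7 and 49.2 CPM with Treg. It rose by 1.53 ± 0.23 (adjusted p = 0.00971, edgeR), and the call was lost without HP1a WT Tconv library 2 (edgeR adjusted p = 0.0570). In HP1a KO it stood at 12.6, 16.9 and 37.8 CPM without Treg and at 36.7, 26.1 and 44.4 CPM with Treg, which overlap, with a log2 fold change of 0.69 ± 0.43. In HP1g WT it stood at 24.3, 30.0 and 53.1 CPM and then at 28.5, 30.1 and 28.1 CPM, with a log2 fold change of -0.31 ± 0.28. In HP1g KO it stood at 18.9, 44.7 and 52.1 CPM and then at 41.4 and 39.1 CPM, with a log2 fold change of 0.05 ± 0.42.

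Marker levels moved beside these values. The sum of 8 myeloid markers was 6.80 to 7.83 CPM in HP1a WT Tconv and 24.0 to 59.0 CPM with Treg. Of its 5 tested genes 2 rose, Cd68 by 3.16 (adjusted p = 0.00999, edgeR) and Adgre1 by 3.18 (adjusted p = 0.0464, edgeR) on the log2 scale. Csf3r had 0 counts in HP1a WT Tconv and at most 0.518 CPM with Treg. In HP1a KO the sum was 12.7 to 158 CPM and then 173 to 542 CPM. The sum of 6 dendritic cell markers was 15.4 to 22.3 CPM in HP1a WT Tconv and 9.54 to 12.4 CPM with Treg. Within it Itgax fell by 2.42 (adjusted p = 0.0311, edgeR), Zbtb46 was at a mean of 1.92 CPM without and 5.17 CPM with Treg, and the number of these markers with counts was 3 without and 6 with Treg. The sum of 4 Treg markers (Foxp3, Ikzf2, Il2ra and Tnfrsf18) was 296 to 321 CPM in HP1a WT Tconv and 413 to 571 CPM with Treg. It was 283 to 502 CPM in HP1g KO with Treg, and 209 to 324 CPM in HP1a KO with Treg. Of these 4 markers, all tested, only Ikzf2 was called with Treg in HP1a WT, higher by 3.82 (adjusted p = 0.00500, edgeR). The part of other cells in the Batf and Irf8 values was not tested.

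**Figure D4:**
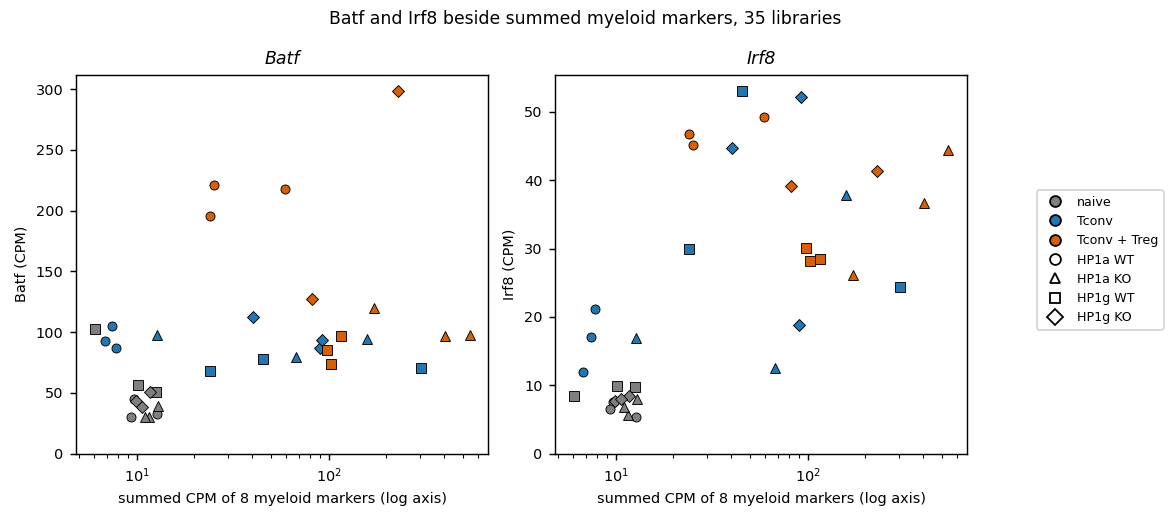
Batf and Irf8 (CPM, vertical axes) against the summed CPM of 8 myeloid markers (horizontal log axis) in 35 libraries, coloured by condition and shaped by line and genotype. The 3 HP1a WT libraries with Treg lie between 24.0 and 59.0 on the horizontal axis with Batf at 196 to 221 CPM, while the 3 HP1a KO libraries with Treg lie between 173 and 542 with Batf at 96.4 to 120 CPM.

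For the JUN genes in HP1a WT, Jun stood at 759, 731 and 561 CPM without and at 439, 476 and 208 CPM with Treg, with a log2 fold change of -0.83 ± 0.31 (adjusted p = 0.164, edgeR). Junb had -0.45 ± 0.19 and Jund -0.30 ± 0.17. None passed the test. The sum of the 16 immediate-early and stress response genes was 6762 to 9427 CPM without and 5737 to 6605 CPM with Treg. Its part in the JUN values was not tested. Irf4 stood at 21.0, 23.0 and 11.9 CPM without and at 44.9, 34.0 and 25.3 CPM with Treg. Its log2 fold change of 0.94 ± 0.31 was not called (adjusted p = 0.125, edgeR), and it was called without library 3 of Tconv with Treg (log2 fold change 1.11, adjusted p = 0.0418, edgeR).

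Whether the Treg effect differed between the lines was tested in WT cells. The Treg effect on Irf8 was larger in the HP1a line by 1.83 ± 0.38 on the log2 scale (adjusted p = 0.0346, edgeR), 1 of the 10 genes tested, against 1.56% of all genes. That on Batf was larger by 0.94 ± 0.18 (adjusted p = 0.0261, edgeR), below the threshold on the fold. A line, the preparation of its own libraries and the strength of Treg suppression in its experiment cannot be told apart. The paper states that the response of WT cells was not effectively repressed at the ratio of Tconv to Treg used with the HP1g line. For the Treg effect over all genes, 932 were called in HP1a WT and 2 in HP1g WT. The Irf8 call was lost without HP1a WT Tconv library 2 (edgeR adjusted p = 0.0767) or 3 (0.0999), HP1a WT Tconv with Treg library 1 (0.0533), HP1g WT Tconv library 2 (0.0606) or 3 (0.0567), or HP1g WT Tconv with Treg library 1 (0.0669), 2 (0.1001) or 3 (0.0876). With the replicate number as a block it was 1.79 (edgeR adjusted p = 0.0717). Batf passed the fold threshold without HP1a WT Tconv library 2 (log2 difference 1.01) or HP1g WT Tconv with Treg library 1 (1.04).

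The third question was how KO cells differed from WT cells. No gene of the 10 was called in any of the 6 comparisons. In the HP1a line these were 0 of 9 in Naive cells (0% of all genes called), 0 of 9 in Tconv (0.103%) and 0 of 10 in Tconv with Treg (0.123%). In the HP1g line they were 0 of 9 in Naive cells (0.00669%), 0 of 9 in Tconv (0.0437%) and 0 of 9 in Tconv with Treg (0%). In the 2 comparisons where edgeR called no gene at all, 291 (HP1a Naive) and 2028 (HP1g Tconv with Treg) genes had an unadjusted p under 0.05, and DESeq2 called 14 and 627. A p that misses the threshold does not show that values did not differ, and few genes of any kind were called.

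In HP1a Tconv with Treg the groups did not overlap for 5 of the 10 genes, against 21.5% of all genes. Jun, Junb and Jund were higher in every KO library, with log2 fold changes of 0.44 ± 0.29, 0.41 ± 0.17 and 0.34 ± 0.17, and Batf and Irf8 (-0.42 ± 0.21) were lower. Jun stood at 439, 476 and 208 CPM in WT and at 526, 510.4 and 514 CPM in KO. Irf8 stood at 45.2, 46.7 and 49.2 CPM in WT and at 36.7, 26.1 and 44.4 CPM in KO. None of these passed the test. The sum of the 16 immediate-early and stress response genes was 5737 to 6605 CPM in WT and 7063 to 7460 CPM in KO. Its part in the JUN values was not tested.

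For Batf in Tconv with Treg, HP1a WT stood at 221, 196 and 218 CPM and in HP1a KO at 96.4, 120 and 97.8 CPM, so that all KO libraries were below all WT libraries. The log2 fold change was -1.04 ± 0.15 (adjusted p = 0.0656, edgeR). By DESeq2 the adjusted p was 3.4e-07 with a log2 fold change of -1.04, where 3.84% of all genes were called. In HP1g WT it stood at 96.9, 85.5 and 73.8 CPM and in HP1g KO at 299 and 127 CPM, again with no overlap but in the opposite direction. The HP1g KO library with Batf at 299 CPM had a Treg marker sum of 502 CPM and a myeloid sum of 230.01 CPM, and that with 127 CPM had 283 and 82.0 CPM. In HP1g WT with Treg these sums were 223 to 264 CPM and 98.0 to 116 CPM, and their part in the Batf values was not tested. The log2 fold change was 1.32 ± 0.35 (adjusted p = 0.248, edgeR), and by DESeq2 it was 1.31 (adjusted p = 0.0109), where 3.56% of all genes were called. Without HP1g KO library 2 the edgeR value was 1.78 (adjusted p = 0.0291) and without library 1 it was 0.57 (adjusted p = 0.456), each of which leaves 1 KO library. The fit of all libraries of both lines called Batf in both comparisons, with adjusted p = 0.0103 and 0.00551 (edgeR).

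The difference of these KO effects between the lines was called for Batf, 1 of the 10 genes, against 2.72% of all genes. Here too, line, library preparation and strength of Treg suppression cannot be told apart. The log2 KO effect in the HP1a line minus that in the HP1g line was -2.34 ± 0.39 (adjusted p = 0.0162, edgeR). It was -1.57 (adjusted p = 0.0427, edgeR) without HP1g KO library 1 and -2.83 without HP1g KO library 2, each of which leaves 1 library in that group. With the left-out HP1g KO library included, Batf in that library stood at 26.1 CPM and the value was -1.86 (adjusted p = 0.401, edgeR). The call was also lost without HP1a KO Tconv with Treg library 1 (edgeR adjusted p = 0.0525) or 3 (0.0571) or HP1g WT Tconv with Treg library 2 (0.0562). Without HP1a WT Tconv with Treg library 3, Fosl2 was called as well (log2 difference 1.51, adjusted p = 0.0222, edgeR). Irf8 had a difference of -0.89 ± 0.27 (adjusted p = 0.106, edgeR).

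The difference of the Treg effect between KO and WT gave no called gene among the 10 in the HP1a line (against 0.139% of all genes) or in the HP1g line (against 0%). For Batf in the HP1a line it was -0.96 ± 0.17 (adjusted p = 0.0635, edgeR). It passed without HP1a KO Tconv with Treg library 2 (-1.06, adjusted p = 0.0422, edgeR) and without HP1a WT Tconv with Treg library 2 (-1.02, adjusted p = 0.0435, edgeR). In the HP1g line it was 0.86 ± 0.38, and without HP1g KO Tconv with Treg library 2 it was 1.36 (adjusted p = 0.0490, edgeR), while without library 1 it was 0.10. In the HP1g line 667 genes had an unadjusted p under 0.05 by edgeR and DESeq2 called 15.

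In Naive cells, Irf4 stood at 9.40, 3.56 and 19.9 CPM in HP1g WT and at 31.0, 35.5 and 56.4 CPM in HP1g KO. All KO libraries were above all WT libraries, with a log2 fold change of 1.93 ± 0.57 (adjusted p = 0.630, edgeR) and, by DESeq2, of 1.90 (adjusted p = 0.0331). DESeq2 called 38 genes in all in that comparison. In HP1a Naive cells, Irf4 had 0.85 ± 1.48 and Fosl2 -0.06 ± 1.68 without pairing, although equal replicate numbers paired the libraries there. In order of number, Irf4 stood at 26.5, 2.03 and 2.24 CPM in WT and at 49.5, 2.38 and 2.96 CPM in KO. Fosl2 stood at 75.1, 3.56 and 3.29 CPM in WT and at 72.5, 2.80 and 2.62 CPM in KO. With the replicate number as a block none of the genes was called. Without both libraries numbered 1, again none of the genes was called.

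In Tconv without Treg, Fosb of the HP1a line stood at 76.3, 74.7 and 49.6 CPM in WT and at 87.0, 112 and 91.8 CPM in KO, with a log2 fold change of 0.55 ± 0.18 (adjusted p = 0.552, edgeR), and Batf had -0.06 ± 0.10. In the HP1g line the means of all 6 FOS and JUN genes were lower in KO, with log2 fold changes between -0.36 for Junb and -0.84 for Fosl2, and none passed the test. The groups did not overlap for 4 of the 9 genes, Fos, Jun and Jund (lower in KO) and Batf (higher), against 13.9% of all genes. The median log2 fold change of the 9 genes was -0.43, against 0.02 over all genes. Jun stood at 680, 778 and 647 CPM in WT and at 614, 403 and 438 CPM in KO, with -0.51 ± 0.17 (adjusted p = 0.451, edgeR), and Batf had 0.46 ± 0.12 (adjusted p = 0.323, edgeR). The sum of the 16 immediate-early and stress response genes was 9497 to 13864 CPM in HP1g WT and 6933 to 10700 CPM in HP1g KO, and its part in these values was not tested. The HP1g values are unpaired, although equal replicate numbers paired the libraries there. With the replicate number as a block none of the genes was called.

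Batf3, which pairs with JUN proteins in dendritic cells, had 0 counts in all 12 Naive libraries, where 3 counts would be 0.0451 to 0.0819 CPM, and at most 1.28 CPM in any library. It was highest in HP1a KO Tconv with Treg, at 0.232, 0.2503 and 1.28 CPM. It passed the filter on low counts in 6 comparisons, such as the Treg effect in HP1a KO (log2 fold change 0.95 ± 1.02), and was called in none of them. The 2 genes most alike to it in pattern were the MHC class II genes H2-Eb1 (Pearson r = 0.837) and H2-Ab1 (0.820).

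Genes most alike in pattern were listed for each of the 10, as the 2 highest Pearson correlations of log2(CPM + 0.5) over 35 libraries among 9342 genes. Batf was followed by Baz1a (r = 0.951) and Dynlt3 (0.942), Irf8 by Cybb (0.949), a subunit of the NADPH oxidase, and Ccl4 (0.937). Fosl2 was followed by Dusp5 (0.937) and Maff (0.935), Fosb by Gfod1 (0.933) and Samd3 (0.926), and Irf4 by Fam83d (0.892) and Nfkbid (0.891). Junb was followed by Ptp4a1 (0.932), Jun by Ppp1r15a (0.894) and Pja1 (0.872), Jund by Rrad (0.867) and Ppp1r15a (0.858), and Fos by Zfp36 (0.807) and Rxra (0.684). Among the 10 genes themselves the highest values were Junb with Jund (0.9002), Fosl2 with Junb (0.850), Jun with Jund (0.824) and Batf with Irf8 (0.806). These values describe libraries that share condition, line and marker content, and carry no test.

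Other genes of the pathway were counted by list. Of 13 AP-1 partner genes (FOS-like, ATF, MAF, BACH and related factors), 12 were tested in each activation comparison; 4 were called higher and 2 lower in HP1a WT, 3 and 1 in HP1a KO, 6 and 1 in HP1g WT, and 5 and 1 in HP1g KO. Their median log2 fold change was 0.64, 0.31, 1.15 and 0.59, against -0.04, -0.01, -0.03 and 0.02 over all genes. Of all genes tested 23.1%, 19.7%, 23.5% and 23.1% were called there. Maf, a regulator of effector cytokines, rose by 4.85 in HP1a WT, 4.94 in HP1a KO and 5.03 in HP1g KO. Jdp2, an AP-1 repressor, rose by 4.80 in HP1a WT, 4.45 in HP1g WT and 4.55 in HP1g KO. Atf3, a stress-induced partner of JUN proteins, rose by 5.15 in HP1a KO, 6.96 in HP1g WT and 3.86 in HP1g KO. Fosl1, of the FOS family, was called higher in HP1a WT (mean 0.0295 CPM in Naive and 0.469 CPM in Tconv) and in HP1g WT (0.0596 and 1.77 CPM), and no fold is given because its Naive levels are near the floor of 3 counts. Bach2, a repressor that restrains effector genes, fell by 3.52 in HP1a KO. Maf, Jdp2 and Bach2 were each called in the same direction in all 4 comparisons, and values are given where a gene was among the 3 with the largest fold. With Treg, 3 of 11 rose in HP1a WT (Maf by 1.83, Bach2 by 1.56 and Jdp2 by 1.55), against 5.96% of all genes called. None was called in the 3 other Treg comparisons, where 13, 12 and 12 were tested, against 0.44%, 0.0126% and 0% of all genes. In the KO effect between the lines 2 of 13 were called higher (Atf3 by 4.03 and Mafk by 1.25) and 1 lower (Maf, -2.25). Of all genes tested 2.72% were called there.

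Of 7 other IRF genes, Irf5 was called higher in each activation comparison, with log2 fold changes of 3.82, 3.35, 3.98 and 4.18. None was called in the 4 Treg comparisons. Of 15 MAP kinase and NFAT genes, Mapk8 was called lower in HP1a WT activation (-1.39), and Nfatc2 (1.57) and Nfatc3 (1.13) higher in HP1g WT activation, with none in the 2 other activation comparisons or in the 4 Treg comparisons. Of 16 immediate-early and stress response genes, 3 were called higher in HP1a WT, 3 in HP1a KO, 6 in HP1g WT with 1 lower, and 3 in HP1g KO with 4 lower. The shares of all genes called were those given with the AP-1 partners. Ier3 rose most, by 6.94, 6.24, 7.80 and 5.09. In the Treg effect in HP1a WT 1 of the 16 was called higher (Zfp36l1, 1.32) and 1 lower (Dusp5, -1.30), against 5.96% of all genes. None was called in the other 3. In the KO effect between lines 4 of the 16 were called higher, led by Dusp5 (2.02), Dusp10 (1.98) and Klf6 (1.79), against 2.72% of all genes.

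Il2, Il4, Il21, Il10 and Ctla4 are among 13 genes chosen as reported targets of BATF and IRF4. In HP1a WT activation 10 of 12 tested were called higher and 1 lower. In HP1a KO 11 of 13 were called higher, in HP1g WT 12 of 13 and in HP1g KO 11 of 13. Over all genes tested 23.1%, 19.7%, 23.5% and 23.1% were called. The list was chosen with earlier results of these data known, and regulation of its genes by BATF or IRF4 was not tested. The median log2 fold change was 3.89, 3.67, 4.45 and 3.63 as fitted, against -0.04, -0.01, -0.03 and 0.02 over all genes. Fitted values of genes without counts in Naive cells depend on the prior count. Il17a and Il4, both cytokines, had the highest fitted values in all 4, but Il17a had 0 counts in all 12 Naive libraries and Il4 in 7, so no fold is given. In the Treg effect in HP1a WT, 4 of 13 were called higher and 2 lower, with a median of 0.39 against 0.03 over all genes. Of all genes tested there 5.96% were called. Il21, the cytokine of follicular helper cells, rose by 5.98 (1.71 to 5.38 CPM without and 104 to 309.7 CPM with Treg), Il10 by 5.38, and Bcl6, the regulator of those cells, by 2.57. None was called in the 3 other Treg comparisons. In the difference of the Treg effect between lines 3 were higher (Il21 4.27, Bcl6 2.44 and Ctla4 1.65), against 1.56% of all genes called. In that of the KO effect 4 were lower, led by Il10 (-7.50), Il21 (-5.66) and Bcl6 (-2.64), against 2.72%.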

How the data were processed

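The authors ran nf-core/rnaseq on paired reads (trimming, STAR alignment to GRCm39, Salmon quantification), which gave the deposited table of estimated counts per gene, as deposited unscaled. STAR, Salmon and the build are also named in the submitters' processing notes. Libraries were made from small RNA amounts with a SMART-seq kit. Of the deposited values 82.9% are whole numbers, and the estimated counts were rounded before testing.

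Names of the 36 columns gave the samples, and titles gave the groups. No column belonged to another series and none held a comparison made by the authors. As in the study, the third HP1g KO library from hosts with Treg was not used, except in an alternative. Depth was 37029519 to 63042245 estimated counts per library in use. Of the 36 pairs of libraries within a group, 0 held identical values.

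Tests were edgeR's quasi-likelihood test (edgeR 4.0.16, R 4.3.3) with TMM factors, filterByExpr and robust estimation. Each fit held the compared groups alone, with Benjamini-Hochberg adjustment over all genes tested. Calls needed a log2 fold change above 1 in size and an adjusted p under 0.05. The fitting was tested on simulated data. Alternatives were DESeq2 1.42.0 (the authors' tool), RLE factors, no low-count filter, no fold threshold, 1 joint fit of both lines, a block for the replicate number, the unused library put back, and leaving out each library in turn. Leaving out both HP1a Naive libraries numbered 1 was chosen after seeing the data. For levels RLE factors and for patterns a pseudocount of 2 in place of 0.5 were tried.

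The 10 genes and all lists were chosen with earlier results of these data known. Named genes were the 10 in every comparison, at most the 3 called genes of each pathway list and comparison with the highest absolute log2 fold change, and for each of the 10 the 2 genes most alike in pattern with a mean of at least 5 CPM, excluding immune receptor segments, genes known only by prediction or clone number, and numbered pseudogenes. Batf is also in a gene list that the study chose on these samples. Floors were taken at 3 counts and cover counting error only. Values after ± are SE from the quasi-likelihood test, which includes the spread between libraries. Equal replicate numbers were judged to pair libraries if, with at least 3, all correlated above 0.1 in their deviations from the group mean. This held for KO against WT in HP1a Naive (0.287 to 0.654) and HP1g Tconv (0.112 to 0.431). The main tests held no block for the replicate number, so the values given for these comparisons are unpaired. Positions and exon lengths came from GENCODE on GRCm39, in which 731 of the 56748 genes were not found. Promoters of all 10 genes were found in the RefSeq table on GRCm38.p6. Results for 2 further genes under these rules are not reported here.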

Additional observations from a re-analysis of the deposited data

Results flagged for a closer look

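The Treg effect in WT cells differed between the lines by a test of the difference itself. For Irf8 it was larger in the HP1a line by 1.83 ± 0.38 on the log2 scale (edgeR's quasi-likelihood test, Benjamini-Hochberg adjusted p = 0.0346), a call kept in 4 of 12 fits without 1 library and lost with the replicate number as a block (edgeR adjusted p = 0.0717). Irf8 was higher in all 3 HP1a WT libraries with Treg than in any HP1a WT Tconv library without. For Batf the difference was 0.94 ± 0.18 (edgeR adjusted p = 0.0261), below the threshold on the fold. Line, library preparation and strength of Treg suppression cannot be told apart in these differences.

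The KO effect in Tconv with Treg differed between the lines for Batf, with a log2 difference of -2.34 ± 0.39 (edgeR adjusted p = 0.0162). It was -1.57 without HP1g KO library 1, and the call was lost in 3 of 11 fits without 1 library (HP1a KO library 1 or 3, or HP1g WT library 2) and with the unused HP1g KO library put back (edgeR adjusted p = 0.401). Batf was lower in all 3 HP1a KO libraries than in the HP1a WT libraries, and higher in both HP1g KO libraries than in the HP1g WT libraries. Library preparation and strength of Treg suppression went with the line here as well.

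The third HP1g KO Tconv with Treg library, which no comparison used, had Fosb at 595 CPM and Fosl2 at 89.1 CPM. The highest values in the 35 other libraries were 213 and 75.2 CPM. The same library had Jun at 115 CPM, Junb at 287 CPM, Batf at 26.1 CPM and Irf8 at 11.5 CPM, and its correlation with the libraries of its group was 0.641, against at least 0.788 for the others.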

How the results depend on the processing

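For single genes, 390 values under the alternatives kept their direction and their side of the threshold, 40 lost a call, 24 gained one and 2 changed direction. Leaving out each library in turn gave 2 to 5 calls for activation in HP1a WT, 1 to 5 in HP1a KO, 2 to 4 in HP1g WT and 4 to 5 in HP1g KO, 1 to 3 when Treg were added in HP1a WT, 0 to 1 for KO against WT in HP1g Tconv with Treg, for both interactions of genotype and Treg and for the Treg effect in WT between lines, and 0 to 2 for the KO effect between lines. Fosl2 changed direction in activation without the first HP1a Naive library, with log2 fold changes from -1.14 to 2.40 in HP1a WT and from -1.02 to 2.79 in HP1a KO. By DESeq2, 1 gene was called instead of 0 for KO against WT in HP1a Tconv with Treg (Batf), HP1g Naive (Irf4) and HP1g Tconv with Treg (Batf). Over all genes DESeq2 called 713, 38 and 627 in these comparisons. With all libraries in 1 fit, 1 instead of 0 was called in both KO comparisons of Tconv with Treg and in the Treg effect of HP1g KO, each time Batf. No share of all genes stands beside the counts of this fit or of most fits without 1 library. Without a filter on low counts, 1 was called in HP1a Tconv with Treg. With no threshold on the fold, 2 instead of 1 were called for the Treg effect in WT between lines, and with the left-out library 0 instead of 1 for the KO effect between lines. The cause was not tested. RLE factors moved no group mean by 1 SD, and 16 of 20 genes most alike in pattern were listed again with a pseudocount of 2.

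With the replicate number as a block, 0 instead of 1 gene was called for the Treg effect in WT between lines (Irf8, edgeR adjusted p = 0.0717), and Irf4 lost its call for activation in HP1g WT (edgeR adjusted p = 0.0601). In these comparisons the libraries share only a number. Where the numbers paired the libraries, KO against WT in HP1a Naive and HP1g Tconv, the block gave 0 calls, as without it.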
